A study of Mus musculus with 9 samples.

Results

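The heart muscle transcriptome described here is that of mice after sham surgery, which opens the chest without tying off an artery. Its members are the 3 sham libraries, replicates 1 to 3, chosen by the treatment label, out of 9 libraries in the series. The other 6 libraries, 3 from hearts with coronary artery ligation and 3 from ligated hearts implanted with cells named FOXO3-GE-MPCs, were not analysed here, and no groups were compared. All animals were of the NOD-SCID strain, which carries a mutation in the DNA repair kinase gene Prkdc on the NOD background and lacks mature T and B cells. The labels give no age, sex or count of animals, and they name the border zone of the infarct as the sampled region for the sham hearts too, although a sham heart has no infarct. Whether each library came from a separate animal is not stated, and the file headers of replicates 1 and 2 share a name stem that replicate 3 does not have, so the spread between libraries may be technical in part.

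The heart is an organ of continuous work. Its muscle cells are filled with sarcomeres, the repeating units in which myosin thick filaments pull on actin thin filaments, and with mitochondria, which burn fatty acids, lactate and glucose to supply the ATP for each beat. Many proteins of these machines exist as families whose members are used in the ventricle, the atrium, fast skeletal muscle or other tissues, so the ratio between family members describes the tissue sampled. Between the muscle cells lie endothelial cells, fibroblasts, pericytes and resident macrophages, which are smaller and contribute less RNA.

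The 3 libraries held 6130726, 6556556 and 6843059 reads counted to genes, a mean of 6510110 ± 358430 (SD, n = 3, as for every ± below). A count of 3, equal to 0.439 to 0.491 CPM (counts scaled to the same library size), was taken as the floor of detection. The markers of the labelled tissue were present in every library. Myh6, the main myosin heavy chain of the adult mouse ventricle (chr14:54941921-54966927, mm10), had 58296, 65074 and 60632 counts, and Actc1, cardiac actin (chr2:114047282-114053548), had 55405, 63244 and 61646. Pecam1 of endothelial cells had 2276, 2657 and 2764 counts and Col1a1 of fibroblasts 1336, 1513 and 1594. For Myh6, Actc1, Pecam1 and Col1a1 the coefficient of variation (CV, the SD as a percent of the mean) of CPM was 5.45%, 3.47%, 4.55% and 3.28%.

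Counts were concentrated in few genes. The gene with the most counts, mt-Co1, took 7.90% ± 0.121 of gene counts, the top 10 genes took 22.4% ± 0.108, the top 100 took 39.2% ± 0.285 and the top 1000 took 65.7% ± 0.195. Ranked by mean share, 287 genes held 50% of all gene counts, and 281, 294 and 285 did so in the single libraries. On length-scaled counts 52 genes held 50%. With the mitochondrially encoded genes left out, 621 genes held 50% of the remaining counts. The share of protein-coding genes was 97.5% ± 0.0193, and long intergenic RNA genes took 0.338% ± 0.00435.

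**Figure D1:**
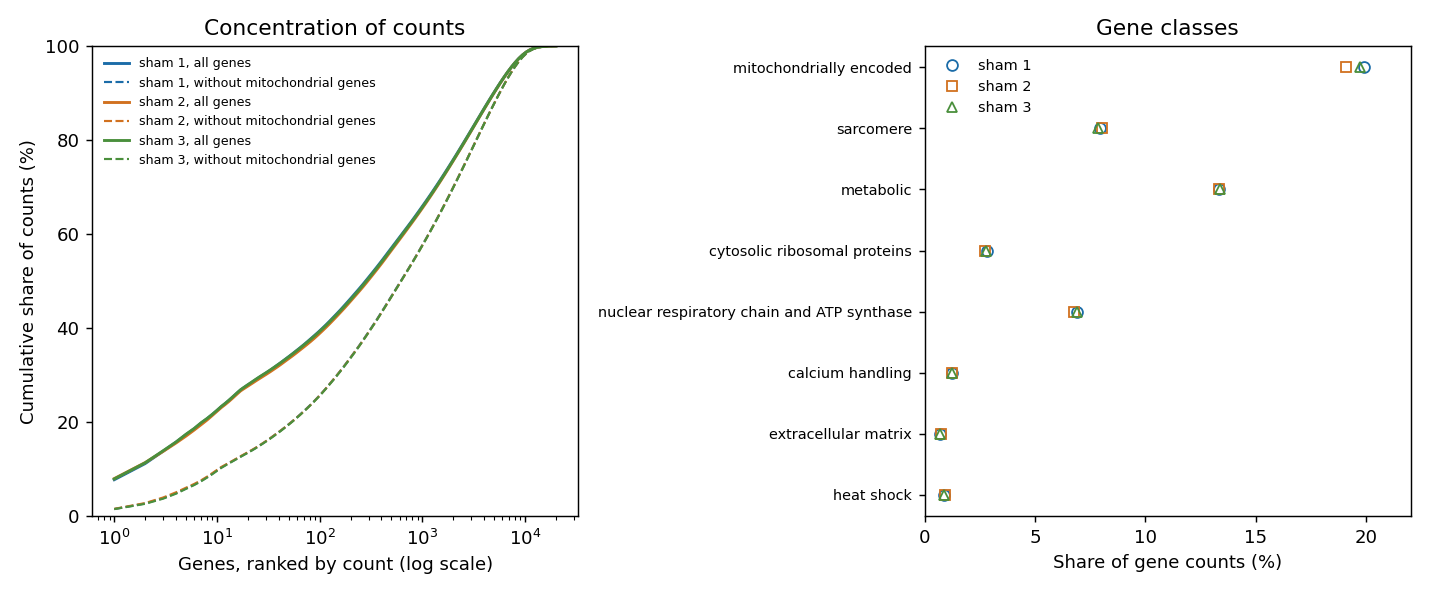
Left, cumulative share of gene counts (%, y axis) against genes ranked by count (x axis, log scale) in each sham library, with all genes (solid) and without mitochondrially encoded genes (dashed). Right, share of gene counts (%) held by each gene class, with 1 symbol per library. The lines of the 3 libraries lie on each other, 287 genes reach 50% with all genes and 621 without mitochondrial genes, and the mitochondrially encoded class is the highest of those plotted at 19.1% to 19.9%, an order that turns when genes with shared sequence are left out.

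Mitochondrially encoded, sarcomere and metabolic genes together, 258 genes of which 20 had no count in any library, took 40.9% ± 0.343 of gene counts. The 37 mitochondrially encoded genes took 19.9%, 19.1% and 19.7%. The 46 sarcomere genes took 7.93%, 8.05% and 7.86%, and the 175 nuclear genes of energy metabolism took 13.3%, 13.3% and 13.4%. For comparison within the same libraries, 83 cytosolic ribosomal protein genes took 2.78% ± 0.031, 26 genes of the extracellular matrix 0.719% ± 0.0198 and 15 heat shock genes 0.899% ± 0.0163. Library 2 had the lowest mitochondrial and the highest sarcomere share, and the libraries differed by less than 1 percentage point in each class. Without genes that share at least 10% of their 31-base stretches with another gene, the mitochondrial share was 10.1%, below the sarcomere (10.4%) and metabolic (12.4%) shares. On length-scaled counts the mitochondrial share was 34.1%, that of the 3 classes together 56.0% and that of the extracellular matrix 0.286%.

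The 20 genes with the most counts divided into 7 of the mitochondrial genome, 7 of the sarcomere, and 6 of oxygen, energy or calcium supply. The mitochondrial genes were mt-Co1, mt-Cytb, mt-Nd1, mt-Nd4, mt-Nd2, mt-Nd5 and the ribosomal RNA mt-Rnr2. The sarcomere genes were Myh6, Actc1, Tnnt2, Myl2, Tpm1, Myl3 and Tnni3, and their counts in replicates 1, 2 and 3 were 58296, 65074 and 60632 for Myh6, 51954, 58396 and 58255 for the troponin T gene Tnnt2 and 48949, 51678 and 55979 for the ventricular regulatory light chain Myl2. The last 6 were Mb (myoglobin, the oxygen store of muscle), Slc25a4 (the ADP/ATP exchanger of the inner mitochondrial membrane), Atp2a2 (the calcium pump of the sarcoplasmic reticulum), Atp5b and Atp5a1 (the β and α subunits of ATP synthase) and Lpl (lipoprotein lipase, which frees fatty acids from circulating lipoproteins). Mb had the highest nuclear count, 75125, 83654 and 83640, or 1.24% ± 0.0301 of gene counts, although 31.9% of its exonic bases also lie in an exon of another gene.

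Counts grow with the length of a transcript, so levels of different genes were compared as TPM, which is counts per kilobase scaled to the same total in each library. Length was that of all annotated exons of a gene joined. Where the length of the gene's principal transcript gave a value more than 1.5 times higher or lower, both are given. Mb was again the highest nuclear gene at 17800 ± 554 TPM, followed by Actc1 at 12208 ± 560.3, Myl2 at 8794 ± 149 (14419 by principal transcript) and Fabp3, the fatty acid binding protein of muscle, at 8076 ± 333. Of the 13 nuclear genes among the 20 with the most counts, 9 were also among the 20 highest nuclear genes per length of principal transcript. Short transcripts such as Cox8b (6269.9 TPM) and Cox6a2 (6027 TPM), small subunits of cytochrome c oxidase, entered that list by length scaling. Gm23935, a microRNA gene whose 31-base stretches are all found in another gene, also stood in it at 5977 ± 2716 TPM and is uncertain.

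The strands of the small circular mitochondrial genome are transcribed as long precursors, which are cut into the messages of 13 proteins, 2 ribosomal RNAs and 22 transfer RNAs. In these libraries the genes of complex I of the respiratory chain took 37.9% ± 0.993 of mitochondrial counts, complex III (mt-Cytb alone) 17.5% ± 0.302, complex IV 41.6% ± 0.903 and the ATP synthase genes 0.320% ± 0.214. The ATP synthase share was 0.565%, 0.228% and 0.168% in replicates 1, 2 and 3. Of complex IV, mt-Co1 alone took 40.4% of mitochondrial counts. Nuclear copies hold the sequence of several of these genes, as given below, so the split by complex is uncertain too. The ribosomal RNAs took 2.50% ± 0.125. Of the 22 transfer RNA genes, 20 had 0 counts in all 3 libraries, and mt-Tp had 1236, 1438 and 1518 counts.

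Within the mitochondrial genome the libraries were close for some genes and far apart for others. The counts of mt-Co1 (chrM:5328-6872), the catalytic subunit of cytochrome c oxidase, were 476342, 524824 and 543333, and those of mt-Cytb 210768, 223541 and 234635, with CVs of CPM of 1.13% and 0.889%. The other cytochrome c oxidase subunits had fewer counts: mt-Co2 had 12968, 4788 and 3690 and mt-Co3 had 9969, 4380 and 9870. The ATP synthase subunit mt-Atp6 had 6846, 2825 and 2240 counts. Library 1 was highest for mt-Co2 and mt-Atp6, and library 2 was lowest for mt-Co3. Nuclear copies of mitochondrial DNA hold the sequences of these 3 genes: 100%, 99.9% and 99.5% of the 31-base stretches (31-mers) of mt-Co2, mt-Co3 and mt-Atp6 occur in another annotated gene, against 6.55% for mt-Cytb. The same holds for mt-Nd3 (1354, 424 and 768 counts, 98.1% shared) and mt-Nd4l (398, 58 and 181 counts, 98.9% shared). For mt-Co1, 63.9% were shared at a CV of 1.13%. Levels of these genes are therefore uncertain. Genes with at least 10% of 31-mers shared or 25% of exonic bases overlapping another gene were treated as uncertain throughout. Besides those marked where they are described, this holds for mt-Nd2, mt-Nd4, mt-Nd5, Mb, Fabp3, Aldoa, Oxct1, Bckdha, Suclg2, Uqcr11, Uqcrc2, Cox5a, Cox6a1, Atp5l, Ckm, Cryab, Il2rg, Xist, Adrb3, Cma1, Mpo, Klrb1c, Myh2, Myh3 and Myh4, named above or below. The mitochondrial share is a share of the reads that the authors' counting assigned to the mitochondrial copies.

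Thick filament genes, 12 in number, took 2.89% ± 0.0605 of gene counts. The light chains Myl2 (8794 TPM) and Myl3 (6282 TPM, 10243 by principal transcript) stood highest, then the heavy chain Myh6 at 3000.5 ± 183 and the myosin binding protein Mybpc3 at 1511 ± 40.7. The lowest was Myom3, an M-band protein, at 1.36 ± 0.437 TPM. Thin filament genes, 14 in number, took 3.44% ± 0.0459. Actc1 (12208 TPM) led this list by joined exons and Tnnt2 by principal transcript (11504 against 2382 TPM), with the troponins Tnnc1 (5820 TPM) and Tnni3 (5817 TPM, 9835 by principal transcript) and tropomyosin Tpm1 (2143 TPM, 5473 by principal transcript) below. The lowest was Neb, the giant ruler protein of skeletal muscle thin filaments, at 0.313 ± 0.0715 TPM with 21, 32 and 23 counts.

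The 20 genes of titin and the Z disc took 1.61% ± 0.0109 of gene counts. Tcap, which anchors titin at the Z disc, was highest at 4141 ± 212 TPM, and Ankrd2 was lowest at 5.46 ± 1.03 TPM. Ttn, the giant spring of the sarcomere, had 12887, 13382 and 14738 counts but 38.4 ± 0.882 TPM, since its exons are long. All 46 sarcomere genes had a count in every library. The median CV of CPM among members with at least 10 CPM was 2.93%, 3.61% and 3.36% in the thick filament, thin filament and Z disc lists.

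Sarcomere genes are known to be driven by a small set of factors that bind short DNA motifs near the transcription start. Promoters of 38 of the 46 genes were found in RefSeq (GRCm38.p6), as the 250 bases before each start annotated in RefSeq. RefSeq and GENCODE place the start of some genes differently, Actc1, Acta1 and Myl3 among them. A CArG box, the motif of serum response factor, was searched on both strands. It was present in 10 of 52 sarcomere promoters (19.2%), against 1.47% of all 32851 promoters in the table and 0 of 183 promoters of the metabolic genes. The MCAT element CATTCC, on either strand, was present in 28.8% of sarcomere promoters and in 12.6% of all. Other motifs searched differed less: the GATA site was present in 17.3% against 9.99% and the E box in 78.8% against 66.2%. The TATA box was present in 11.5% of sarcomere promoters and in 12.4% of all. The 8 sarcomere genes with a CArG box were Actc1, Myl3, Fhl2, Acta1, Ldb3, Myom1, Myl7 and Nebl. The matches describe the letters in these windows and were not tied to binding. The 3 promoters below are those of the cardiac actin, the skeletal actin and the ventricular essential light chain described above and in the family ratios. Capitals mark TATAAA, the MCAT letters on either strand and the CArG box.
Actc1, chr2:114052876-114053125, minus strand: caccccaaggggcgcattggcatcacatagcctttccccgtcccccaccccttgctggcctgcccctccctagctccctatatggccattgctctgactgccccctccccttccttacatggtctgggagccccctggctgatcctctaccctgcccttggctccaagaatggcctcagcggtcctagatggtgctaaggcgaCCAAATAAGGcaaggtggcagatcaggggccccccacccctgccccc
Acta1, chr8:123894776-123895025, minus strand: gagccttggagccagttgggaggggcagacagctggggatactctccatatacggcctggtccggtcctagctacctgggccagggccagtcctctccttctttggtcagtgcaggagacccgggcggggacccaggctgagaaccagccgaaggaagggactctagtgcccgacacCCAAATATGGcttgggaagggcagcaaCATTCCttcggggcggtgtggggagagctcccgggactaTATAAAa
Myl3, chr9:110763428-110763677, plus strand: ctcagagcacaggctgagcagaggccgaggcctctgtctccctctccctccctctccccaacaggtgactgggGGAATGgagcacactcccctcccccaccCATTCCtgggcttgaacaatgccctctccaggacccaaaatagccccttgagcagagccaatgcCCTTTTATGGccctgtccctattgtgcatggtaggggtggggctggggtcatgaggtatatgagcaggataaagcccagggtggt

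The nuclear genes of energy metabolism were led by Mb, the oxygen store of muscle, followed per length of joined exons by Fabp3, Cox8b, Cox6a2 and Slc25a4. The 84 nuclear genes of the respiratory chain and ATP synthase took 6.85% ± 0.0782 of gene counts, of which complex I (37 genes) took 1.6% ± 0.0183, complex II (4) 0.265% ± 0.00366, complex III (10) 0.849% ± 0.00384, complex IV (13) 1.23% ± 0.0369 and the ATP synthase list with its carriers (20) 2.9% ± 0.0305. Every one of the 84 genes had counts in all 3 libraries. Highest per length in each list were Ndufa1 of complex I at 1835 TPM (Ndufa4 by principal transcript at 3073), Sdhb of complex II, an iron-sulfur subunit, at 913, Uqcr11 of complex III at 2633, Cox8b of complex IV at 6269.9 and Slc25a4 at 5779.8. Lowest were Ndufb2 at 3.36, Sdhc at 353, Uqcrc2 at 359, Cox5a at 264 (643 by principal transcript) and Atp5l at 69 TPM (611 by principal transcript). By principal transcript the lowest of complex IV was Cox6a1 at 597 TPM and the lowest of the ATP synthase list Usmg5 at 248. Ndufb2 had only 66, 43 and 63 counts, while the median of its list was 522 TPM. Its joined exons were 5628 bases long, and 7.94% of them also lie in an exon of another gene. Whether reads of Ndufb2 were left uncounted there was not tested. Ndufa12 had 675, 1858 and 772 counts, the widest spread of these lists at a CV of 58.3%, and 20.7% of its 31-mers were shared.

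Fatty acids are the main fuel of the adult heart. The 30 genes of their uptake and oxidation took 1.87% ± 0.0412 of gene counts, with Fabp3 highest at 8076 TPM, then the dehydrogenase Acadl at 1117 ± 13.5 and the uptake receptor Cd36 at 1076 ± 41.7. Cpt1b, the muscle form of the carnitine transferase that admits long-chain fatty acids to mitochondria, was lowest at 4.19 ± 0.98 TPM with 46, 49 and 33 counts. That value is uncertain, because 81.4% of the exonic bases of Cpt1b also lie in exons of another gene and reads there may be counted to neither. The Krebs cycle and pyruvate list (22 genes) took 1.5% ± 0.0248, from malate dehydrogenase Mdh1 at 1633 ± 3.35 TPM to Suclg2 at 31.6 ± 1.95. By principal transcript Idh2, the mitochondrial isocitrate dehydrogenase, led that list at 1719.5.

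Glucose use (23 genes) took 1.34% ± 0.05 of gene counts. The muscle phosphoglycerate mutase Pgam2 was highest at 2256 ± 73.7 TPM, with Ldhb (2089), Eno3 (1939) and Aldoa (1929.8, highest by principal transcript at 2779) close to it. Aldoc, the brain aldolase, stayed under the floor with 0, 0 and 2 counts. Ketone and branched-chain amino acid use (10 genes) took 0.213% ± 0.00133, led by the ketone-activating enzyme Oxct1 at 449 ± 4.89 TPM and lowest for Bckdha at 31.1 ± 1.53. The creatine and oxygen store list (6 genes) ranged from Mb down to the creatine transporter Slc6a8 at 51.8 ± 2.34 TPM, and its mitochondrial creatine kinase Ckmt2 stood at 3047 ± 18.9. The median CV of these metabolic lists lay between 1.44% and 4.41%.

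Ratios within 38 gene families were read as counts per kilobase of the first form over the second, the first being the form known from the heart, striated muscle or mitochondria-rich tissue. In 37 families both forms had more than 3 counts in a library, and the first form was higher in 34 of them (33 by principal transcript, 33 without length scaling). The SD of the log2 ratio over the 3 libraries had a median of 0.10 and ranged from 0.02 to 0.52. In 22 families neither form passed the limits on shared or overlapping sequence (10% of 31-mers, 25% of exonic bases), and these are the firmer ratios.

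Adult ventricular forms prevailed in the sarcomere. Myh6, the fast α heavy chain, was 29, 30.7 and 28.4 times as high as Myh7, the slow β heavy chain used in the fetal mouse ventricle. These neighbouring genes share sequence (29.2% and 27.9% of 31-mers), so the ratio is uncertain in size. Cardiac actin Actc1 was 10.3, 10.2 and 9.64 times as high as skeletal actin Acta1. Tnni3, the cardiac troponin I, was 7572 times as high as Tnni1, the slow skeletal form that the fetal heart uses, which had only 9, 11 and 6 counts. Tnnt2 exceeded Tnnt1 by 134 times (404 by principal transcript), Tpm1 exceeded Tpm2 by 32.9 (81), and Actn2 exceeded the non-muscle form Actn1 by 27.9. Tnnc2, the fast skeletal troponin C, had 0 counts in every library, so Tnnc1 was at least 4433 times as high against the floor of 3 counts per library. This bound is uncertain because 74% of the exonic bases of Tnnc2 lie in exons of another gene.

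Ventricular and atrial light chains were both measured. Myl2 was 17.1, 16.7 and 16.4 times as high as the atrial form Myl7 (36.7 by principal transcript), and Myl3 was 75.2, 82.9 and 67.1 times as high as the atrial form Myl4 (33.2). The calcium pump Atp2a2 exceeded the fast skeletal form Atp2a1 by 4066 times, with 6, 5 and 6 counts for Atp2a1. Its inhibitor Pln exceeded the atrial inhibitor Sln by 8.92 times, though 64.7% of the exonic bases of Pln overlap another gene. The calcium release channel Ryr2 exceeded the skeletal Ryr1 by 819 times, the calcium store protein Casq2 exceeded Casq1 by 51.4, and the L-type calcium channel Cacna1c exceeded Cacna1d by 41.3 (91.4). The gap junction protein Gja1 exceeded the atrial and conduction form Gja5 by 11.6 (20.3 by principal transcript).

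Natriuretic peptides are hormones that heart muscle releases when stretched. Nppb was 3.84, 7.72 and 4.67 times as high as Nppa, with 2648, 2913 and 3071 counts for Nppb and 764, 418 and 728 for Nppa. The spread of this ratio was the widest of all families (log2 SD 0.52). Nppb itself had a CV of 1.75% and Nppa one of 32.2%, library 2 being low, and 61.5% of the exonic bases of Nppa overlap another gene.

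Metabolic families held the muscle form above the general form in most pairs. The insulin-regulated glucose carrier Slc2a4 exceeded Slc2a1 by 16.7 times, Pfkm exceeded the liver form Pfkl by 7.58 (4.91 by principal transcript), Pgam2 exceeded Pgam1 by 36.9, and Eno3 exceeded Eno1 by 29 (12.2). Lactate dehydrogenase Ldhb, the heart form, exceeded Ldha by 4.02, 4.01 and 4.17 in the 3 libraries (2.61 by principal transcript). The creatine kinases Ckm and Ckmt2 exceeded the brain form Ckb by 5.5 (2.97) and the ubiquitous mitochondrial form Ckmt1 by 4687 (3042). Fabp3 exceeded Fabp4, the form of capillary endothelium and fat, by 11.9, a value that fell to 2.37 by principal transcript. The exchanger Slc25a4 exceeded Slc25a5 by 11.5, and Acacb, which makes the malonyl-CoA that brakes fatty acid entry, exceeded the lipid-synthesis form Acaca by 15 (9.14). The small cytochrome c oxidase subunits showed the same order, with Cox6a2 over Cox6a1 at 9.3, Cox7a1 over Cox7a2 at 4.13 and Cox8b over Cox8a at 8.06. In the pairs led by Pgam2, Eno3, Ldhb, Ckm, Fabp3, Slc25a4, Acacb and Cox6a2, and in the earlier pairs led by Atp2a2, Pln, Gja1 and Nppb, at least 1 form is past a limit on shared or overlapping sequence, so these ratios are uncertain in size.

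Regulators and the remaining pairs differed in order and size. The kinase subunit Prkaa2 exceeded Prkaa1 by 1.58, 1.56 and 1.47 times, and the estrogen-related receptor Esrra exceeded Esrrg by 9.53 (15.9 by principal transcript). The translation factor forms Eef1a2 and Eef1a1 stood at ratios of 0.895, 0.981 and 0.926, uncertain in size because 51.5% of the 31-mers of Eef1a1 are shared. Hexokinases Hk2 and Hk1 were near parity, at a mean ratio of 1.12, and this order turned to 0.548 by principal transcript. Also below 1 stood Cpt1b over Cpt1a at 0.34 (0.224 by principal transcript), uncertain for the overlap given above, and Ppara over Pparg at 0.182, 0.145 and 0.213. The fatty acid regulator Ppara had 34, 34 and 46 counts and the fat-cell regulator Pparg 144, 180 and 166, and neither passed the limits on shared sequence.

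**Figure D2:**
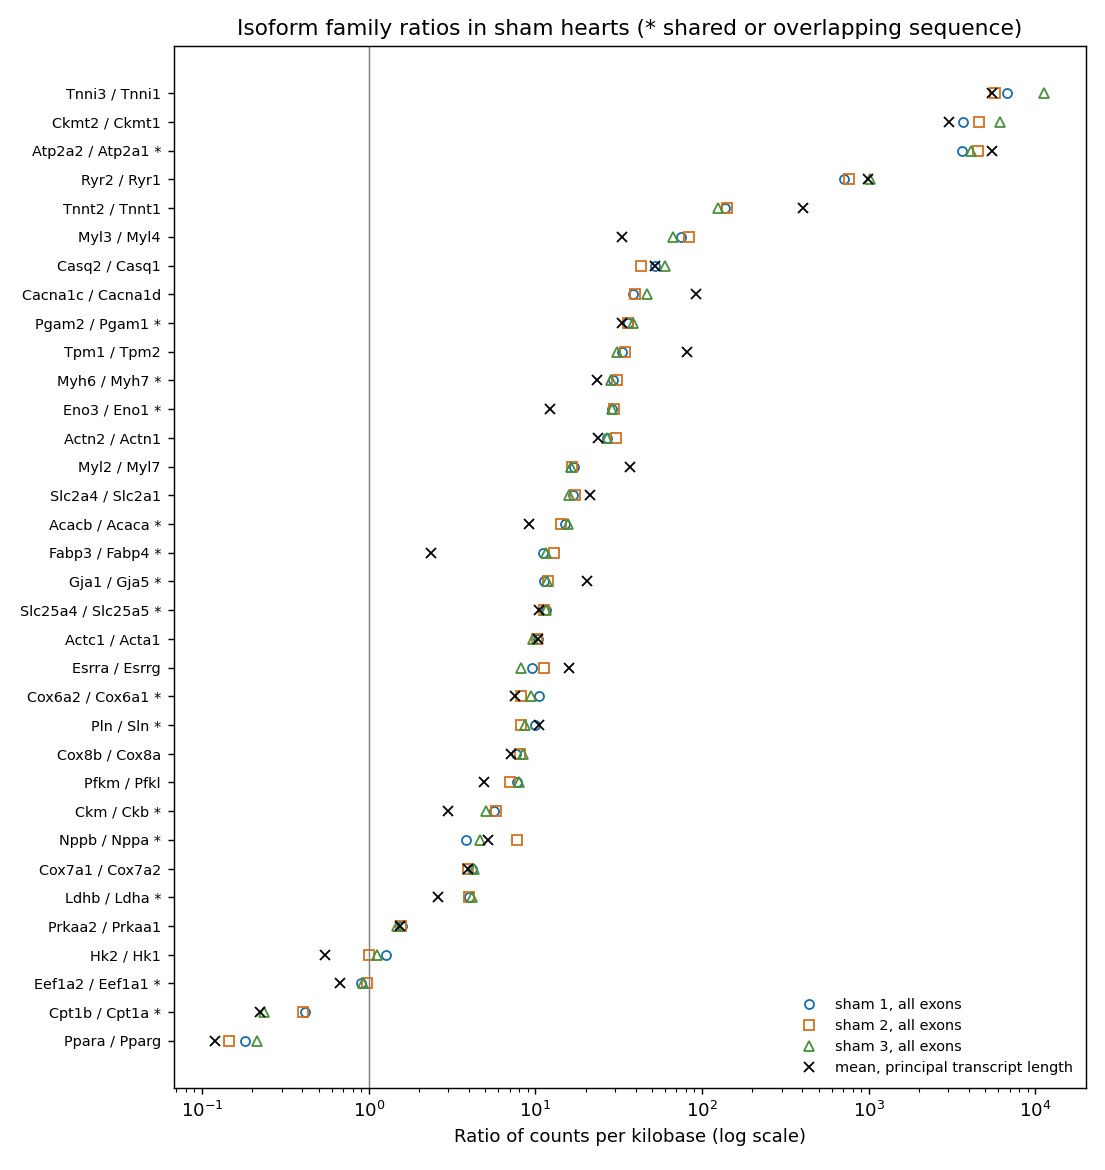
Ratio of counts per kilobase of the first to the second form of each family (x axis, log scale), for 34 of the 37 families in which both forms were above the floor. Open symbols are the 3 libraries with the length of all exons joined, crosses are the mean with principal transcript length, and an asterisk marks a pair with shared or overlapping sequence. The library symbols lie close together in most families, 31 of the 34 plotted families lie above 1 by their mean, and crosses stand apart from the symbols for pairs such as Tnnt2 over Tnnt1 and Fabp3 over Fabp4.

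Calcium handling genes, 18 in number, took 1.25% ± 0.0177 of gene counts. S100a1, a calcium sensor of heart muscle, was highest at 2792 ± 74.4 TPM and the pump Atp2a2 (2172 ± 29.5) highest by principal transcript at 2201. Fkbp1b, a subunit of the release channel, was lowest at 2.99 ± 0.534 TPM. Of 18 cardiac transcription factors, 17 were counted in every library, from Nkx2-5 at 93.5 ± 10.9 TPM downwards, while Hand1, a factor of the embryonic left ventricle, had 0 counts. By principal transcript Esrra led at 114 TPM. Among 8 natriuretic and fetal genes Acta1 was highest at 1216 ± 58.4 TPM (Ankrd1 by principal transcript), and Nppc was under the floor with 2, 0 and 0 counts.

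Other lists gave the state of matrix, stress and timing genes in these hearts. Mgp, an inhibitor of calcification, led the matrix list at 624 ± 10 TPM, and Tnc, a matrix protein of injured tissue, was lowest at 0.703 ± 0.0524 with 15, 16 and 19 counts. Immediate early genes, which respond within minutes to handling and stress, were led by Klf2 at 130.2 ± 7.67 TPM, while Fosb was lowest at 0.337 ± 0.148 and Fos stood at 2.6 ± 0.438. In the clock list Nr1d1, a repressor, was highest at 65.6 ± 2.57 TPM and the activator Npas2 lowest at 1.46 ± 0.43, and the activator Arntl stood at 2.81 ± 0.319 (5.31 by principal transcript). Small heat shock proteins led their list, with the crystallin Cryab at 2383 ± 59.6 TPM, and the stress-inducible Hspa1a was lowest at 1.73 ± 1.3, with 7, 29 and 11 counts and 70.1% of its 31-mers shared. The median CV was 3.68% in the matrix list, 6.91% in the immediate early list, 7.69% in the clock list and 2.69% in the heat shock list.

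Lists of cell type markers were read as CPM summed over their genes. The lists differ in their number and choice of genes, so these sums show the level and spread of the listed genes, not shares of cells, and in bulk tissue fewer cells of a type cannot be told apart from less RNA per cell. Cardiomyocyte markers (10 genes) summed to 62481 ± 1083 CPM, endothelial markers (15) to 5372 ± 23.2, fibroblast markers (14) to 5184 ± 8.28, pericyte markers (9) to 1410.2 ± 15.3, macrophage and monocyte markers (15) to 795 ± 29.8 and smooth muscle markers (8) to 769.5 ± 22.5. All genes of these 6 lists had counts in every library.

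Within the vessel and stroma lists the levels per length were as follows. Fabp4 (682 ± 37.3 TPM, 2553 by principal transcript) led the endothelial list and Vwf, which marks larger vessels, was lowest at 22.7 ± 1.3, with Pecam1 at 135 ± 7.43 and Cdh5, the endothelial cadherin, at 204 ± 13.7. In the fibroblast list Gsn, an actin-severing protein, was highest at 1359.6 ± 29.5 TPM and the receptor Pdgfra lowest at 12.1 ± 0.689, and Col1a1 stood at 74.1 ± 3.04. Pericyte markers ranged from Rgs5 at 382 ± 2.43 to Cspg4 at 6.62 ± 0.157 TPM. The highest pericyte gene gave 812 CPM of that list's sum, against a median of 75.2 CPM over the 9 genes. Smooth muscle actin Acta2 stood at 292 ± 5.07 TPM. Tagln, another contractile protein of smooth muscle, had only 11, 6 and 8 counts, and 67.9% of its exonic bases lie in exons of another gene, so its level is uncertain. Lymphatic endothelium (168 ± 6.52 CPM) and endocardium (156 ± 8.16 CPM) gave lower sums, led by Lyve1 at 39.4 ± 4.44 and Cytl1 at 67.3 ± 6.32 TPM.

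Blood and immune markers were uneven. Macrophage markers ran from Lyz2 (422 ± 18.8 TPM, 32.8% of 31-mers shared) and the complement gene C1qa (278 ± 23.4 TPM) down to Ccr2, the receptor of recruited monocytes, at 1.26 ± 0.115 TPM with 22, 27 and 29 counts. Erythroid markers summed to 829 ± 23.2 CPM over 8 of 10 listed genes, Hbb-b1 and Hbb-b2 having no match by symbol, with Hba-a1 at 2576, 3140 and 3106 counts and 75.5% of its 31-mers shared. Neutrophil (38.8 ± 3.35 CPM), dendritic cell (47 ± 4.57), platelet (36.3 ± 1.62) and mast cell (22.6 ± 0.66) lists gave low sums, led per length by S100a9, Zbtb46, Pf4 and Cma1 (Hdc by principal transcript for mast cells). In the dendritic cell list Zbtb46, which endothelium also expresses, gave 39.5 CPM of the sum, and 4 of the 7 genes had no more than 3 counts in any library, and in the platelet list Pf4 gave 29.9 CPM of the sum. Defining markers at 0 counts in every library were Ly6g, Mpo and Elane for neutrophils and Ms4a2 for mast cells.

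Most genes of the lymphocyte lists were at or under the floor. The T cell list (13 genes) summed to 2.72 ± 0.381 CPM, with 10 genes at no more than 3 counts in any library, among them Cd3d, Cd8b1 and Cd5 at 0. Trac, the constant region of the T cell receptor α chain, had 7, 0 and 0 counts, all in library 1, and Cd4, which macrophages can also express, had 3, 7 and 10. The B cell list (12 genes) summed to 12.8 ± 2.5 CPM, most of it from the heavy chain gene Ighm with 63, 63 and 54 counts, while Ms4a1, Pax5 and Iglc1 were at 0. NK cell markers summed to 1.87 ± 0.636 CPM with Klrb1c and Eomes at 0, and in the thymus and lymph node list (4.23 ± 1.12 CPM) the recombination genes Rag1 and Rag2 were at 0, as were Foxn1, Ptcra and Dntt. In the B cell list 10 genes and in the NK cell list 7 had no more than 3 counts in any library.

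Genes tied to the strain were looked up after the other values had been seen. Prkdc, the gene mutated in SCID mice, had 66, 61 and 59 counts, so its message was present, which says nothing of the protein. Il2rg, whose loss is used in other immunodeficient strains, had 46, 46 and 43 counts. Hc, a complement gene that NOD mice carry in a null form, had 0, 1 and 3 counts. H2-Ea-ps, a class II MHC chain gene, had 0, 0 and 0, while its partner chain H2-Eb1 had 407, 400 and 381. The Y-linked Ddx3y had 433, 452 and 588 counts, Eif2s3y 319, 407 and 445, Uty 139, 146 and 165 and Kdm5d 102, 89 and 118, and Xist had 0, 0 and 1, so the 3 libraries showed the same pattern.

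Markers of neighbouring tissues were measured as well. Atrial markers (10 genes) summed to 1278 ± 63.1 CPM, led by Myl7 at 526 ± 19.2 TPM, while Bmp10, a growth factor of the right atrium, had 0, 1 and 1 counts. Conduction system markers summed to 159.6 ± 1.45 CPM, with Smoc2 highest at 26.6 ± 0.472 TPM (48.8 by principal transcript) and the pacemaker factor Isl1 at 0. Smoc2 gave 86.4 CPM of that sum, against a median of 5.73 CPM over the 8 genes. In the atrial list Pam gave 648 CPM of the sum. Mesothelial and epicardial markers summed to 56.8 ± 6.24 CPM, led by Aldh1a2 at 10.8 ± 3.37 TPM (Wt1 by principal transcript at 14.5), and the lowest was Upk1b (Lrrn4 by principal transcript). Adipocyte markers summed to 49.2 ± 2.7 CPM with Cidea highest at 66.9 ± 4.14 TPM, and Ucp1 and Adrb3 were at 0. Cidea gave 34.9 CPM of that sum, and 3 of the 10 genes had no more than 3 counts in any library. Schwann and neural markers summed to 32.3 ± 3.82 CPM, with the catecholamine enzyme Th at 0.

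Markers of distant tissues were read in the same way. The fast skeletal muscle list (15 genes) summed to 1529 ± 29.7 CPM, but Acta1 and Ckm, which heart muscle also expresses, were its highest members, and the fast heavy chains Myh2 and Myh4, the embryonic Myh3 and Tnnc2 were at 0. Liver markers summed to 5.93 ± 1.13 CPM, with Alb, Apoa1, Apob and Fgb at 0. Lung and airway markers summed to 1.25 ± 0.683 CPM, with Sftpc, Sftpa1, Sftpd, Scgb1a1 and Scgb3a2 at 0.

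**Figure D3:**
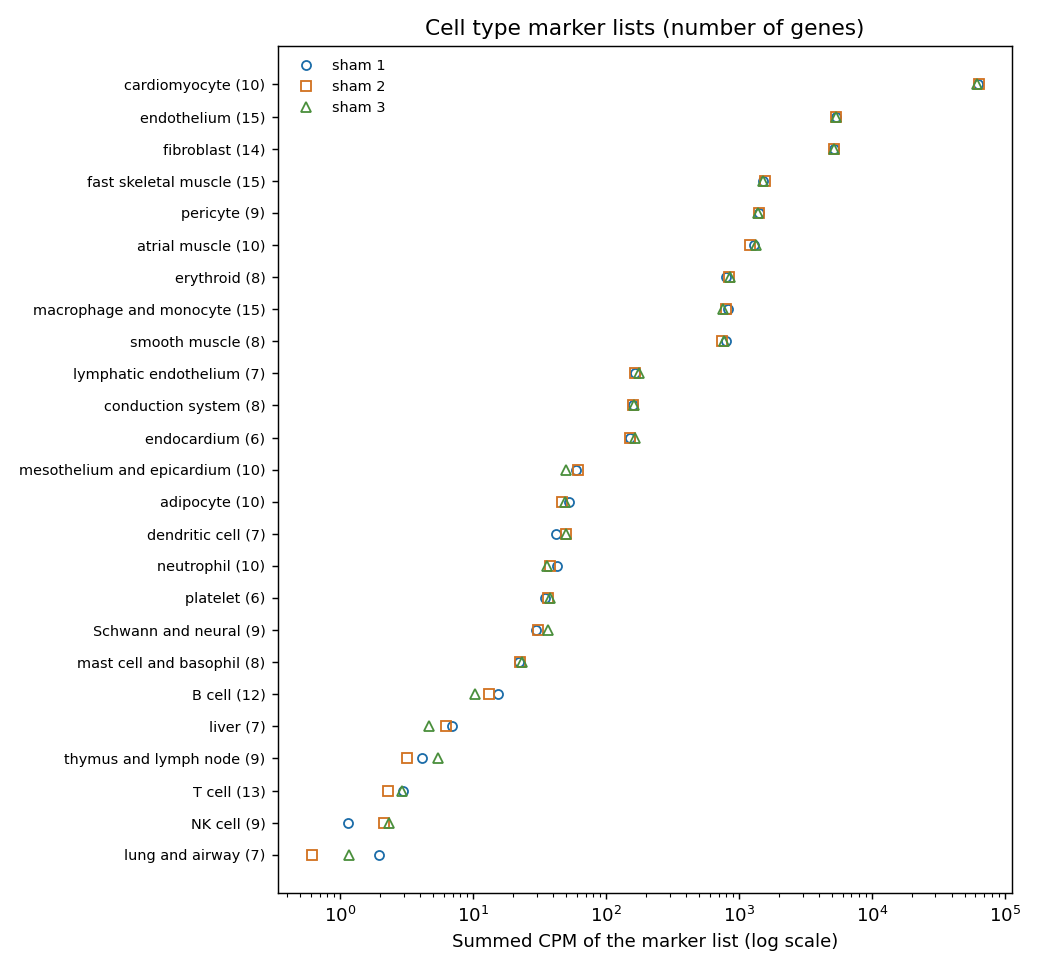
Summed CPM (x axis, log scale) of each of 25 marker lists (y axis, number of genes in brackets), with 1 symbol per sham library. Cardiomyocyte markers lie highest at 62481 CPM on average, endothelial and fibroblast markers follow at 5372 and 5184, and liver, thymus, T cell, NK cell and lung lists lie lowest.

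Of 53465 genes in the files, 31224 (58.4%) had 0 counts in all 3 libraries and 16486 had a count in every library. Among 21942 protein-coding genes, 6203 (28.3%) were at 0. Undetected genes were unevenly spread over gene families. Sensory receptors were nearly all at 0, namely 1094 of 1134 olfactory receptors, 316 of 324 vomeronasal receptors and 33 of 38 taste receptors. So were 56 of 57 keratin-associated proteins of hair, 43 of 53 keratins and 35 of 42 β-defensins.

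Several other families, most of them of general cell function, had few genes at 0 at the same depth. Genes at 0 numbered 1 of 83 cytosolic and 1 of 78 mitochondrial ribosomal proteins, 1 of 39 proteasome subunits, 2 of 47 mitochondrial carriers, 22 of 394 zinc finger proteins and 4 of 44 collagen chains. No more than 3 counts in any library were found for 41 of the zinc finger proteins and 9 of the collagen chains. Between these extremes stood the homeobox cluster genes (17 of 39 at 0), which set body axis identity, the potassium channels (21 of 93) and the cytochromes P450 (61 of 98). Among other gene classes, 7167 of 9022 processed pseudogenes, 4057 of 5248 long intergenic RNA genes and 2080 of 2207 microRNA genes were at 0. A gene at 0 in all 3 libraries was not detectable at this depth, which is not the same as absent.

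The 3 libraries were close. The common biological coefficient of variation, edgeR's estimate of the spread beyond counting error, was 0.0735 over 12540 genes. The median CV of CPM fell with level, from 21.5% for 4846 genes of 1 to 10 CPM to 7.77% for 7603 genes of 10 to 100 CPM, 3.76% for 1365 genes of 100 to 1000 CPM and 2.83% for 81 genes above that. The CV expected from counting error at each gene's mean count had medians of 20.1%, 7.34%, 3.03% and 0.962%. The observed medians lay little above these values below 100 CPM and farther above them in higher genes. With only 3 libraries, the median of observed CVs falls below the expected CV under counting error alone. The spread beyond counting error in low genes is therefore larger than this comparison shows. To see whether 1 library had been deposited more than once, counts were compared in pairs by a chi-square per gene, whose mean is 1 for sampling noise alone. Its mean was 1.94 (1 and 2), 1.67 (1 and 3) and 2.12 (2 and 3) over 10063 genes with little shared sequence, and 3.96, 3.08 and 3.21 over 13144 genes. The 3 libraries were kept as 3 samples as labelled, and whether they came from separate hearts cannot be read from these values.

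A few genes varied far more than the rest. Of 9048 genes with a symbol and a mean of at least 10 CPM, 64 had a CV of at least 30%. Of those 64 genes, 55 (85.9%) shared at least 10% of their 31-mers with another gene, against 20.1% of the 9048, and 46 (71.9%) shared at least 50%, against 3.40%. The 10 with the highest CV were Gm12033, Rpl35a-ps6, Rpl30, Rps27a-ps2, Gm9824, mt-Nd4l, Gm10163, Gm8210, Rpl17-ps5 and mt-Co2, 4 of them named for ribosomal proteins or their pseudogenes, and each shares sequence past the 10% limit. Gm12033 had 0, 2627 and 2 counts, Rpl35a-ps6 693, 86 and 89 and Rps27a-ps2 27, 638 and 353, so which library was high differed from gene to gene. Without the genes that share at least 10% of their 31-mers the common biological coefficient of variation was 0.0473 over 9685 genes.

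**Figure D4:**
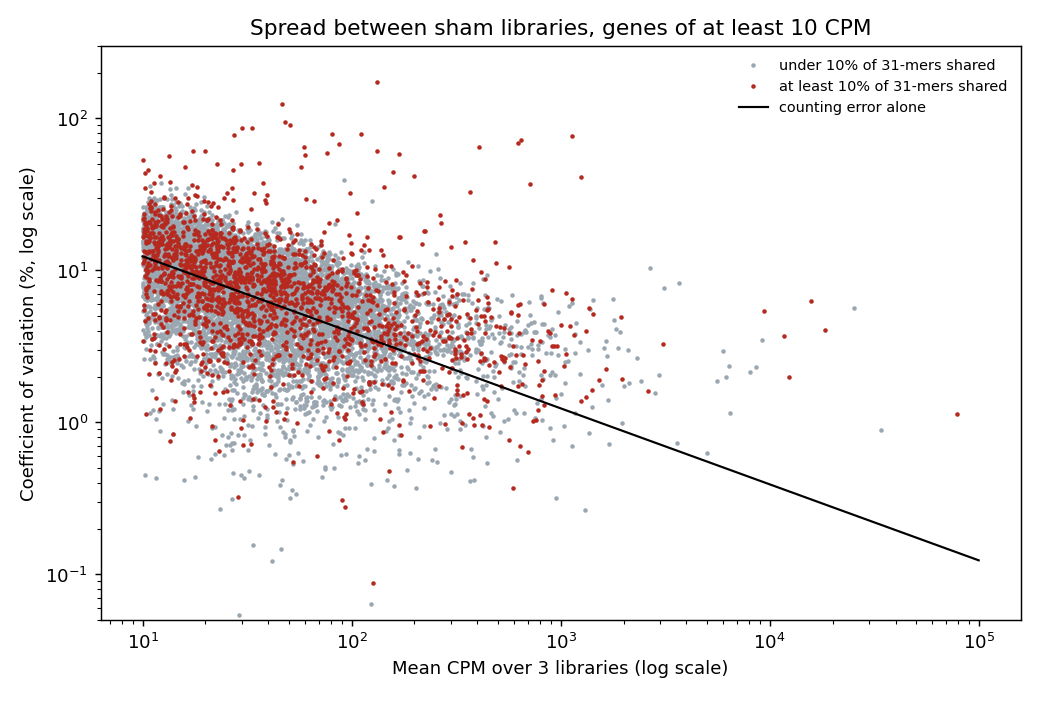
CV of CPM over the 3 sham libraries (%, y axis, log scale) against mean CPM (x axis, log scale) for genes with a symbol and at least 10 CPM. Red points share at least 10% of their 31-mers with another gene, grey points share less, and the line is the CV expected from counting error alone. Most points follow the line, and 55 of the 64 points at a CV of 30% or more are red.

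One of these 64 genes was Gapdh, a glycolytic enzyme often used as a reference gene (chr6:125161715-125166467). Gapdh had 634, 3759 and 3735 counts in replicates 1, 2 and 3, a CV of 64.6%. Gm13394, a processed pseudogene at chr2:28933610-28934609, had 7203, 2545 and 2483 counts, and Gm12033, another at chr11:20335012-20336013, had 0, 2627 and 2. In library 1 the pseudogene Gm13394 was high and Gapdh low, in library 2 all 3 genes had counts, and in library 3 Gm12033 was near 0. Gapdh and the 13 genes that hold at least 20% of its 31-mers summed to 8099, 9234 and 6483 counts, or 1327, 1401 and 948 CPM, with a CV of 19.8%. Of these sums Gapdh itself made up 7.83%, 40.7% and 57.6% and Gm13394 88.9%, 27.6% and 38.3%. The sum of the family therefore varied less between libraries than Gapdh did.

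The copies are nearly letter for letter. Over 1000 aligned bases of GENCODE M21 transcripts, Gm13394 differed from Gapdh at 1 base, A346C, and over 1002 bases Gm12033 differed at 1 base, T504C, with Gapdh's base first and positions counted from the first base of the aligned stretch. Within the aligned stretch, a read that does not cover that base could have come from either gene. The sequences around both differences are shown, 61 bases each, with the differing base in capitals.
Gapdh, around position 346: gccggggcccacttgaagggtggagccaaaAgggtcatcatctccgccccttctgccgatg
Gm13394, around position 346: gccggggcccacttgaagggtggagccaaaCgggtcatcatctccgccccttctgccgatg
Gapdh, around position 504: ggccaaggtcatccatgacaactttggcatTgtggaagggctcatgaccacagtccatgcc
Gm12033, around position 504: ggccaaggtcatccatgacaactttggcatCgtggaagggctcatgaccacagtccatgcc

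Mitochondrial genes with nuclear copies varied in the same libraries, but their sums stayed apart. The nuclear copy Gm28661 at chr1:24614885-24615565 differs from mt-Co2 at 0 of 681 bases, Gm28437 differs from mt-Co3 at 0 of 783, and Gm10925 differs from mt-Atp6 at 0 of 678. The first 60 bases of mt-Co2, which Gm28661 repeats without a difference, are shown.
mt-Co2: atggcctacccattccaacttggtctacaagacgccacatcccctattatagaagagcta
Gm28661 had 1954, 2722 and 2182 counts. Summed with its copies mt-Co2 gave 14940, 7517 and 5880 counts, a CV of 57.1% against 76.6% alone, mt-Co3 30.7% against 41.1% and mt-Atp6 44.3% against 69%. Other families became steadier on summing: Rps27a-ps2, a pseudogene of a ribosomal protein gene, went from 90.7% to 14.9%, Gm9824, which holds sequence of Pebp1, from 86.3% to 5.78% and Rpl17-ps5 from 77.6% to 5.07%. Rpl30 (609, 118 and 178 counts) had no copy past the 20% limit.

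**Figure D5:**
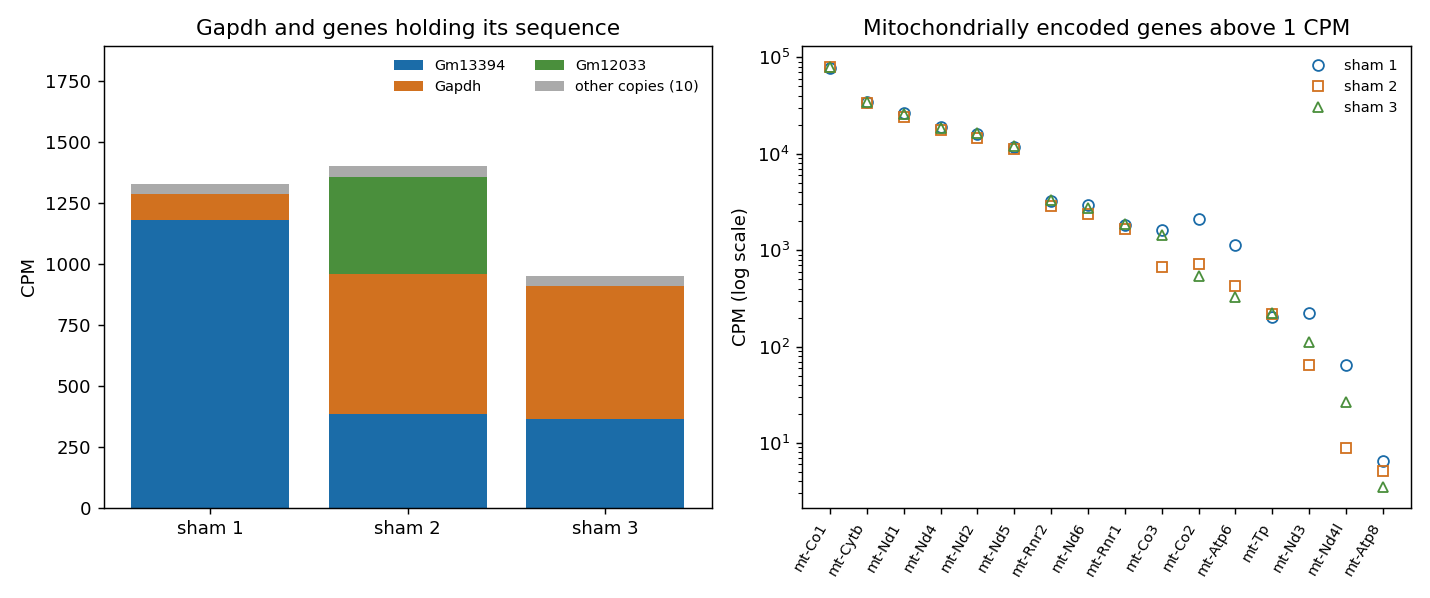
Left, CPM (y axis) of Gapdh, the pseudogenes Gm13394 and Gm12033 and the other 10 genes with counts that hold its sequence, stacked for each sham library. Right, CPM (y axis, log scale) of the mitochondrially encoded genes above 1 CPM, with 1 symbol per library. Gapdh is 104 CPM in library 1 and 570.4 in library 2, and among mitochondrial genes the library symbols separate for mt-Co3, mt-Co2, mt-Atp6, mt-Nd3 and mt-Nd4l.

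Among genes past neither limit on shared and overlapping sequence, the most variable was Usp9x, an X-linked deubiquitinase, with 709, 724 and 345 counts and a CV of 39.3%, library 3 being low. The next 9 were 2010315B03Rik, Mier2, Asb6, 3110039I08Rik, Dcxr, Pgm2l1, Zfand2b, Rara and Aldh1a2, with CVs of 29.9% to 37.5% at means of 10.8 to 19.6 CPM. For the 10 genes the CVs expected from counting error alone were 4.11% to 11.9%. They are the 10 with the highest CV among those of the 9048 genes that are past neither limit, and carry no test.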

How the data were processed

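RNA was measured in hearts of NOD-SCID mice. Total RNA was, per the labels' protocols, isolated in TRIzol, and the NEBNext Ultra RNA kit was used for library preparation. The files deposited by the authors hold raw counts for each gene, not normalized, in 1 file per library. The build is mm10 per the submitters' processing notes, and the aligner, counter, strand setting and annotation release are not given in the sources used here. Closing lines that name no gene (4.19% to 4.25% of reads in no gene, 8.09% to 8.56% in more than 1) stayed out of gene counts. Of 53465 gene IDs, 53360 were found in GENCODE M21, which gave symbols, lengths, exon overlap on either strand and the share of 31-mers found in another gene. Genes past 10% of 31-mers or 25% of overlapping exonic bases are called uncertain.

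From the counts, CPM (TMM factors of the 3 libraries, 0.996 to 1.005), TPM, shares of gene counts and, with edgeR 4.0.16 in R 4.3.3, the common biological coefficient of variation were computed; DESeq2 1.42.0 gave alternative size factors. On simulated data of 12540 genes with a true coefficient of 0.1 the estimate was 0.0997. Since no groups were compared, no test between groups was made. Floors cover counting error only. Gene lists, 46 in number with 590 of 592 symbols matched, and the isoform pairs were chosen with earlier results of these data known. Named genes were the 20 with the most counts, the 10 with the highest CV at a mean of at least 10 CPM, members of isoform pairs, the highest and lowest member per list by length-scaled level, and marker genes at 0; others, among them Gapdh and the strain genes, were chosen after their values were seen, as were the copy sums and the second list of variable genes. Promoter sequences are from RefSeq (GRCm38.p6). Some list members and 3 isoform pairs, which remain in the counts, are not reported here by name. Alternatives covered denominators, length, scaling, filters, shared sequence and leaving out each library. Figures were drawn with matplotlib 3.10.9.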

Additional observations from a re-analysis of the deposited data

Results flagged for a closer look

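Reads outside the gene comparisons were present in every sham library. Each file closes with lines for reads that were not given to 1 gene. Reads that fell in no annotated gene made up 4.19%, 4.20% and 4.25% of all counted reads in replicates 1, 2 and 3. Reads that fell in more than 1 gene made up 8.09%, 8.56% and 8.52%. Cpt1b, Tagln, Pln and Nppa, named above, are among the genes with overlapping exons. The strand setting of the counting is not given in the sources used here, so whether reads of these genes are among them was not tested.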

How the results depend on the processing

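No paired analysis was possible because only the sham group was described and no test between groups was made. With all reads in the files as denominator the mitochondrial share was 17.1%, and without genes sharing at least 10% of their 31-mers (an alternative chosen after seeing the data, as was principal transcript length) it was 10.1%, the sarcomere share 10.4%, the metabolic share 12.4% and the common biological coefficient of variation 0.0473. Without mitochondrially encoded genes the sarcomere share was 9.87%, the metabolic share 16.6%, and 621 genes held 50% of counts; on length-scaled counts these were 6.25%, 15.6% and 52 genes. Among protein-coding genes alone 6203 were at 0. The log2 ratio of Hk2 over Hk1 was 0.17 and turned to -0.71 with the longest transcript, -0.35 without length scaling and -0.87 with the principal transcript. Leaving out each library in turn gave coefficients of variation of 0.0664 to 0.0795 and mitochondrial shares of 19.4% to 19.8%. Over all alternatives, 33 values of the main results moved by less than the spread or limit set for them and 12 moved by more. For single ratios and levels 229 did not, 86 did and 3 changed direction. All of the 86 and the 3 were isoform ratios under another transcript length or no length scaling, which moved most of these ratios. Leaving out a library moved no isoform ratio or marker sum past its limit. Depth limits the statements on lymphocyte, liver and lung markers, since 3 counts equal 0.439 to 0.491 CPM.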
